A study of Homo sapiens with 2 samples.

Results

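The genes of SR proteins, heterogeneous nuclear ribonucleoproteins (hnRNPs) and the kinases of SR proteins were examined in HepG2 cells, a human hepatocellular carcinoma line, under fatty acid loading in the absence or presence of the retinoid 9-cis-RA. The members were taken by gene symbol: 14 SR genes (SRSF1 to SRSF12 and the SR-like TRA2A and TRA2B), 22 hnRNP genes (with PTBP1 and PTBP2) and 6 kinase genes (CLK1 to CLK4, SRPK1 and SRPK2), which makes 42 of the 60623 genes in the deposited tables. Each symbol matched 1 Ensembl identifier. The FFA library came from cells given 1 mM free fatty acids (FFA, oleic and palmitic acid) for 24 h. The FFA + 9-cis-RA library came from cells given the same FFA and 10 μM 9-cis-RA, with 24 h as the time. This is 9-cis-retinoic acid, an agonist of the RXR receptors that also activates RARs. The study's methods describe 9-cis-RA as given after FFA, while its legends describe co-treatment. Whether the total time in FFA was equal in both libraries is therefore not known. Both libraries carry the labels WT and Batch 1. With 2 libraries, 1 per group, there is no replicate check: no p-value or standard deviation can be given, and a difference between the libraries cannot be told apart from a difference between any 2 cultures.

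SR proteins bind exonic sequences in nuclear transcripts through RNA recognition motifs and, through a domain rich in arginine and serine, help the spliceosome to recognize the exon. hnRNPs coat nascent transcripts, often repress the splice sites they cover, and also act in RNA export, stability and translation. CLK and SRPK kinases phosphorylate the arginine and serine repeats of SR proteins, which controls where SR proteins sit in the cell and when they act. Many SR and hnRNP genes adjust their own output through alternative exons that carry an early stop codon, so that part of their RNA is removed by nonsense-mediated decay.

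The libraries held 60821539 counted fragments for FFA and 57669670 for FFA + 9-cis-RA, and a count of 0 allows up to 0.0493 and 0.0520 CPM. Of the 7 hepatocyte markers, AFP had 273242 and 134862 counts, ALB 186609 and 112866, and APOB 262363 and 266440 (FFA, then FFA + 9-cis-RA). SERPINA1 had 294592 and 296345, APOA1 109241 and 110072, and HNF4A 24238 and 21509. TTR was low, with 341 and 278. PTPRC, the leukocyte marker, had 0 counts in both libraries and COL1A1, a fibroblast collagen, had 1 and 2, while the epithelial marker EPCAM had 9584 and 7891. The other 5 markers of other cell types, for macrophages, bile duct, endothelium and stellate cells, had at most 1186 and 773 counts (ACTA2). The log2 fold changes of AFP and ALB were -0.99 and -0.70, and their part in the values below was not tested. The treatment label was checked on 3 retinoid response genes: CYP26A1 had 4 and 709 counts, RARB 6 and 46, and DHRS3 1126 and 1999. In bulk RNA, fewer cells of a type and less RNA per cell cannot be told apart.

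Log2 fold changes are FFA + 9-cis-RA against FFA, from counts divided by size factors with a pseudocount of 1, for the 20431 genes that reached 10 counts in the libraries combined. The counting intervals are exact 95% intervals from the share of a gene's counts in each library, and they cover counting error only. Levels are given as FPKM, counted fragments per kilobase of the deposited exonic length, scaled to the library's total. FPKM uses the total counts, and total-count scaling places the median of all compared genes at 0.029, against -0.020 with the size factors, so a ratio of FPKM values runs slightly above the log2 fold change.

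The splicing factor genes were nearly level between the libraries. Of the 42 members, 41 passed the count minimum, and their log2 fold changes ran from -0.24 for CLK4 to 0.15 for SRPK2, with a median of -0.042. None was past a log2 fold change of 1, against 3.37% of all compared genes above 1 and 4.90% below -1. All 41 reached 1000 counts in the libraries combined, so they are better read against the 10298 genes with that depth. Of those genes, only 21 had a log2 fold change above 1 and 68 below -1. Over 1.2 times higher were 10.1% of them, and over 1.2 times lower 13.1%. No member passed a fold of 1.2, a limit that was chosen after the values were seen. The median absolute log2 fold change was 0.073 for the members, 0.14 for genes with at least 1000 counts and 0.12 for genes with at least 10000 counts.

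**Figure D1:**
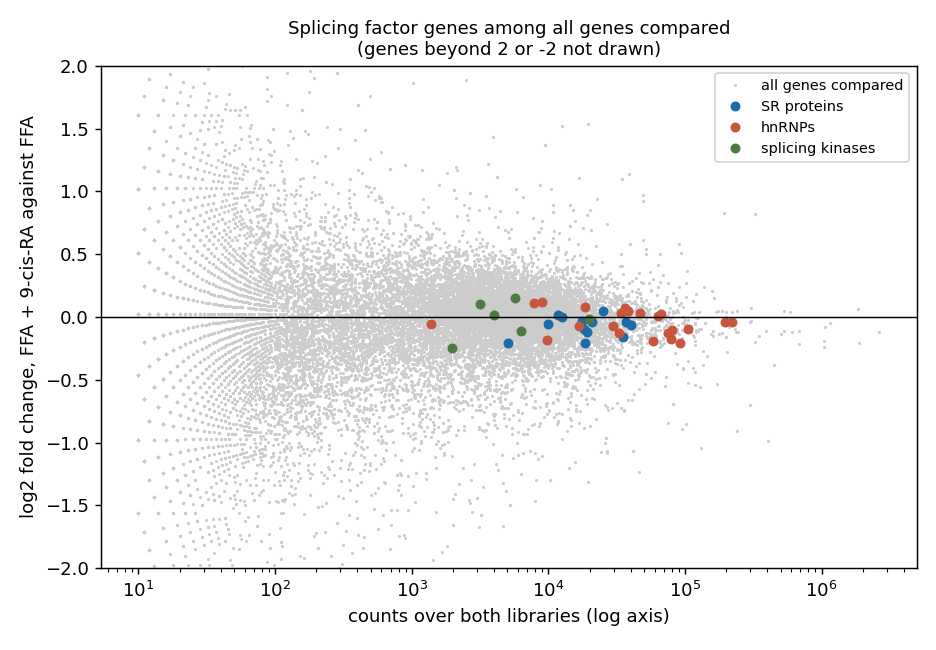
Log2 fold change (FFA + 9-cis-RA against FFA, vertical axis) against counts over both libraries (log horizontal axis). Compared genes are grey points, and SR proteins, hnRNPs and splicing kinases are in color. Genes beyond the limits of the vertical axis are not drawn, CYP26A1 and RARB among them. The 41 colored points lie between -0.24 and 0.15, where the central 95% of all genes spans -1.35 to 1.12. For genes with at least 1000 counts, the depth of the members, it spans -0.66 to 0.45.

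Because these genes are deeply counted, their intervals are narrow, and small differences exclude 0. The counting interval lay above 0 for 11 members and below 0 for 22, and it included 0 for 8. Over all compared genes the interval lay above 0 for 22.5% and below 0 for 25.7%, and over genes with at least 1000 counts for 34.4% and 34.7%. Of the 2654 genes with at least 10000 counts, 919 had an interval above 0 and 1216 below, so at greater depth more genes lay below. The SR genes had 1 member above and 8 below, the hnRNP genes 8 above and 12 below, and the kinase genes 2 above and 2 below. With total-count scaling the SR genes had 2 above and 5 below, so their number below 0 was smaller but still the larger of both.

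The SR and hnRNP lists lay close to each other. The median log2 fold change was -0.052 for the 13 SR genes compared, -0.049 for the 22 hnRNP genes and 0.0023 for the 6 kinase genes. It was 0.0062 for all genes with at least 1000 counts and -0.021 for those with at least 10000. Total-count scaling put the SR, hnRNP and kinase medians at -0.0033, -0.00018 and 0.051. It moved the median of all compared genes from -0.020 to 0.029, so the place of the lists among all genes was nearly the same. The SR median minus the hnRNP median was -0.0031, and it lay between -0.035 and 0.0098 across all alternatives tried. The hnRNP genes spread more evenly around 0, with quartiles at -0.12 and 0.032, while the SR genes had theirs at -0.12 and -0.033.

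The balance of the summed counts was also level. SR genes together summed to 140310 counts under FFA (95% Poisson interval 139577 to 141046) and to 131094 under FFA + 9-cis-RA (130385 to 131806). hnRNP genes had 680215 and 638364, and kinase genes had 20679 and 20217. SR counts were 17.10% of the SR and hnRNP sum under FFA (exact 95% interval 17.02 to 17.18) and 17.04% under FFA + 9-cis-RA (16.95 to 17.12). The log2 ratio of these odds was -0.0064 (95% interval -0.018 to 0.0055), so a shift of the balance was not detectable at this depth. Per kilobase of gene length the SR share was 18.95% and 19.03%, a difference in the other direction.

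**Figure D2:**
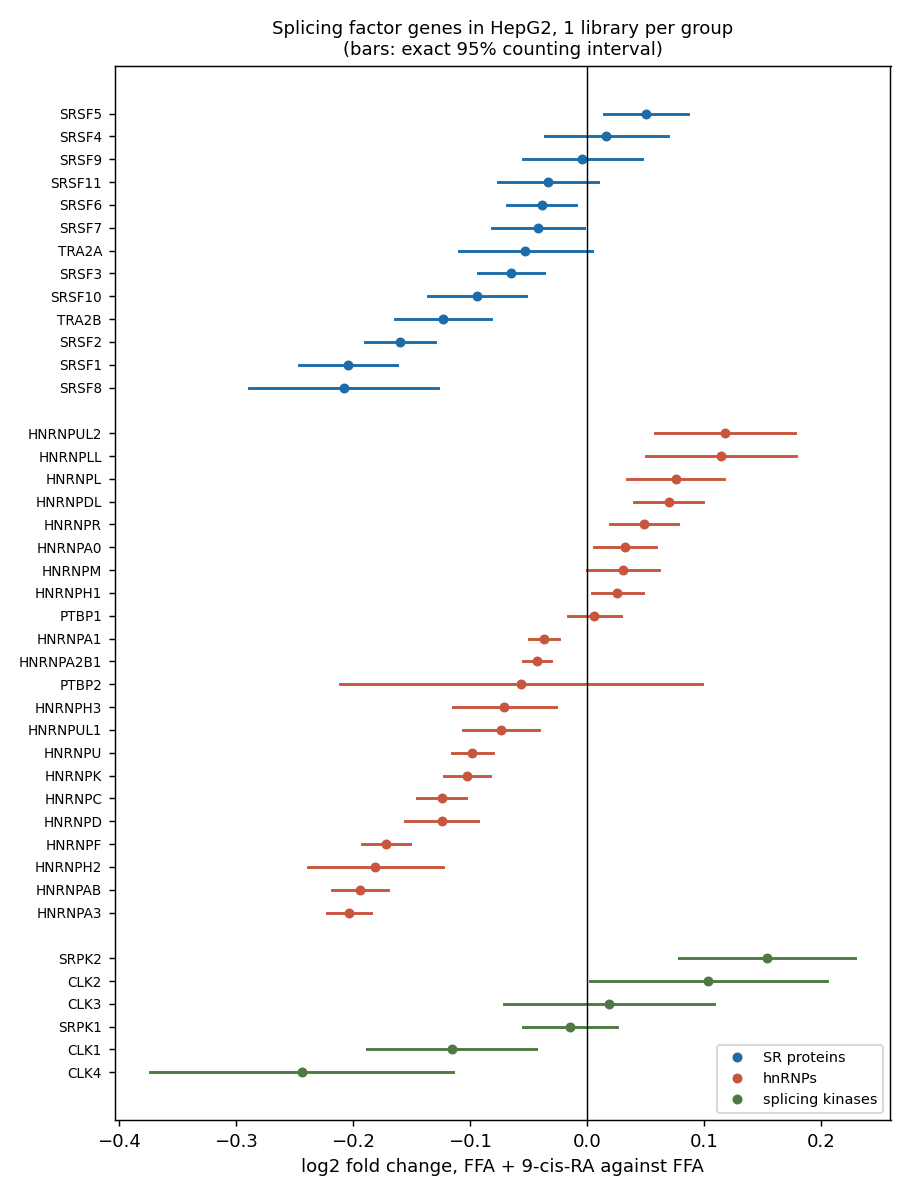
Log2 fold change of the 41 members compared (FFA + 9-cis-RA against FFA, horizontal axis), ordered within SR proteins, hnRNPs and splicing kinases, with points for the value and bars for the exact 95% counting interval. SRSF8, SRSF1 and SRSF2 are lowest among SR genes, and HNRNPUL2, HNRNPLL and HNRNPL are highest among hnRNP genes.

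Among the classical SR genes, SRSF1, SRSF2 and SRSF8 stood lowest. SRSF1, a splicing activator and a known oncoprotein, is encoded at 58000919 to 58007346 of chromosome 17 (GRCh38) and collected 10053 counts under FFA and 8563 under FFA + 9-cis-RA, which put its log2 fold change at -0.20 (counting interval -0.25 to -0.16). SRSF2, a nuclear speckle protein mutated in myeloid neoplasms, had 18747 and 16465 counts, which put its log2 fold change at -0.16 (counting interval -0.19 to -0.13). SRSF8, an expressed retrocopy of SRSF2, had 2716 and 2307 counts, which put its log2 fold change at -0.21 (counting interval -0.29 to -0.13). These 3 genes were 13.2%, 10.5% and 13.4% lower, the largest differences of the SR list. Exons of another gene on the same strand cover 32.7% of SRSF1, and fragments that overlap both genes were not counted.

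SRSF3, SRSF7 and SRSF6 differed by less. SRSF3, the smallest family member and an adaptor for mRNA export, had 20772 and 19483 counts, the most of any SR gene, which put its log2 fold change at -0.065 (counting interval -0.093 to -0.037). SRSF7, its closest relative, had 10608 and 10109 counts, which put its log2 fold change at -0.042 (counting interval -0.081 to -0.0024). SRSF6, which has a pair of RNA recognition motifs, had 18913 and 18065 counts, at a log2 fold change of -0.039 (-0.068 to -0.0091). For SRSF6 and SRSF7 the sign turned with total-count scaling, to 0.011 and 0.0073. An overlapping gene covers 13.4% of the exonic bases of SRSF6.

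SRSF5 was the only SR gene whose interval lay above 0 (with total-count scaling there were 2), and SRSF4, SRSF9 and SRSF11 had intervals that included 0. SRSF5, one of the SR genes known to respond to growth signals and insulin, had 12522 and 12722 counts, which put its log2 fold change at 0.050 (counting interval 0.015 to 0.086). SRSF4, a long SR protein related to SRSF5 and SRSF6, had 5858 and 5814 counts, which put its log2 fold change at 0.017 (counting interval -0.036 to 0.069). SRSF9, a relative of SRSF1 with a short arginine and serine tail, had 6316 and 6180 counts, at a log2 fold change of -0.0038 (-0.055 to 0.047). SRSF11, also called p54, had 9069 and 8695 counts, at a log2 fold change of -0.033 (-0.076 to 0.0095).

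The remaining SR and SR-like genes were on the lower side or too rare to compare. SRSF10, an SR protein that represses splicing when it is dephosphorylated, as in heat shock, had 9548 and 8778 counts, which put its log2 fold change at -0.094 (counting interval -0.14 to -0.052). TRA2B, a homolog of the fly Transformer-2 sex determination factor, had 10090 and 9089 counts, at a log2 fold change of -0.12 (-0.16 to -0.082). Its paralog TRA2A had 5094 and 4819 counts, at a log2 fold change of -0.052 (-0.11 to 0.0047). SRSF12 had 4 and 5 counts and stayed below the count minimum; its interval, -1.87 to 2.68, excludes little.

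HNRNPA1 and HNRNPA2B1, the hnRNP genes with the most raw counts, were close to level. HNRNPA1, a shuttling protein that represses splice sites, is encoded at 54280193 to 54287088 of chromosome 12 and had 100686 and 96329 counts, which put its log2 fold change at -0.036 (counting interval -0.049 to -0.023). HNRNPA2B1, which also sorts RNAs and binds methylated RNA, had 113944 and 108538 counts, at a log2 fold change of -0.042 (-0.055 to -0.030). Both turned to the higher side with total-count scaling, at 0.013 and 0.0066. HNRNPA1 has 74 annotated pseudogenes, with 2460 and 2626 counts in all, and fragments that match several copies were not counted, so its own count is uncertain.

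The genes HNRNPA3, HNRNPAB, HNRNPH2 and HNRNPF formed the low end of the list. HNRNPA3, a relative of HNRNPA1 in RNA trafficking, is encoded at 177212563 to 177223958 of chromosome 2 and had 49417 and 42111 counts, which put its log2 fold change at -0.20 (counting interval -0.22 to -0.18). HNRNPAB, known from the apolipoprotein B RNA editing complex, had 31293 and 26842 counts, at a log2 fold change of -0.19 (-0.22 to -0.17). HNRNPF, which binds G tracts, had 41886 and 36484 counts, at a log2 fold change of -0.17 (-0.19 to -0.15). HNRNPH2, its X-linked relative, had 5265 and 4557 counts, at a log2 fold change of -0.18 (-0.24 to -0.12), and 15.8% of its exonic bases are overlapped. These 4 were 11.2% to 13.1% lower. HNRNPA3 has 16 pseudogenes with 1072 and 894 counts together.

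HNRNPC, HNRNPD, HNRNPK and HNRNPU were lower by smaller amounts. HNRNPC, which binds uridine tracts and keeps cryptic exons out, had 39396 and 35467 counts, which put its log2 fold change at -0.12 (counting interval -0.14 to -0.10). HNRNPD, the AU-rich element binding protein AUF1, had 17215 and 15498 counts, at a log2 fold change of -0.12 (-0.16 to -0.093). Both were lower by a like amount, inside the central 95% of genes with at least 1000 counts, -0.66 to 0.45. HNRNPK, a KH-domain protein that binds cytosine-rich sequences, had 41970 and 38355 counts, at a log2 fold change of -0.10 (-0.12 to -0.082). HNRNPU, a chromatin scaffold protein, had 54999 and 50416 counts, at a log2 fold change of -0.098 (-0.12 to -0.080). HNRNPUL1, a relative of HNRNPU, had 15447 and 14403 counts, at a log2 fold change of -0.073 (-0.11 to -0.040). HNRNPH3 had 8630 and 8062 counts, at a log2 fold change of -0.071 (-0.11 to -0.027).

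On the higher side, HNRNPUL2, HNRNPLL, HNRNPL and HNRNPDL were largest. HNRNPUL2 had 4358 and 4640 counts, which put its log2 fold change at 0.12 (counting interval 0.058 to 0.18), and 44.3% of its exonic bases are overlapped by another gene on the same strand. HNRNPL, which binds CA repeats, had 9168 and 9481 counts, at a log2 fold change of 0.076 (0.034 to 0.12). Another gene on the same strand covers 8.22% of its exonic bases, and its 2 pseudogenes had 825 and 915 counts together, so its own count is uncertain. HNRNPLL, its paralog known for CD45 splicing in lymphocytes, had 3829 and 4067 counts, at a log2 fold change of 0.11 (0.051 to 0.18). HNRNPDL, the AUF1-like protein, had 17959 and 18493 counts, at a log2 fold change of 0.070 (0.040 to 0.10).

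The other hnRNP genes lay near 0. HNRNPR, a relative of SYNCRIP, had 18847 and 19132 counts, which put its log2 fold change at 0.049 (counting interval 0.020 to 0.078). HNRNPA0, a single-exon gene that binds AU-rich elements, had 23275 and 23359 counts, at a log2 fold change of 0.033 (0.0066 to 0.059). HNRNPM had 17006 and 17045 counts, at a log2 fold change of 0.031 (0.00020 to 0.062). HNRNPH1, the G-tract binder, had 33197 and 33162 counts, at a log2 fold change of 0.026 (0.0041 to 0.048). The sign of HNRNPH1 turned when the trend on gene length was removed (-0.0057) and when that on GC content was removed (-0.014). PTBP1, the polypyrimidine tract binding protein that represses neuronal exons, had 31719 and 31254 counts, at a log2 fold change of 0.0063 (-0.016 to 0.029), an interval on both sides of 0. Its neuronal paralog PTBP2 had 709 and 669 counts, at a log2 fold change of -0.056 (-0.21 to 0.098).

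The kinase genes held both ends of the whole range. CLK4, a nuclear kinase of SR proteins, is encoded at 178602664 to 178630615 of chromosome 5 and had 1074 and 890 counts, which put its log2 fold change at -0.24 (counting interval -0.37 to -0.11). CLK1, its close relative, had 3301 and 2989 counts, at a log2 fold change of -0.12 (-0.19 to -0.044). SRPK2, one of the kinases that act on SR proteins in the cytoplasm, is encoded at 105110704 to 105399308 of chromosome 7 and had 2731 and 2981 counts, at a log2 fold change of 0.15 (0.079 to 0.23). CLK2, which is also known from hepatic insulin signaling, had 1546 and 1630 counts, at a log2 fold change of 0.10 (0.0027 to 0.21). CLK3 had 2020 and 2008 counts, at a log2 fold change of 0.019 (-0.071 to 0.11). SRPK1, the most abundant of the 6, had 10007 and 9719 counts, at a log2 fold change of -0.014 (-0.055 to 0.026).

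Levels per kilobase spanned a wide range, and the 10 highest members were the same in both libraries. HNRNPA1 stood first in both, at 325 FPKM under FFA and 328 under FFA + 9-cis-RA. HNRNPAB followed at 243 and 220 FPKM, then HNRNPF at 212 and 194 and HNRNPA2B1 at 202 and 203, the latter pair changing places at ranks 3 and 4. SRSF2 was the highest SR gene at 102 and 94.6 FPKM and stood seventh in both libraries, and SRSF6 came next at 63.5 and 64.0. SRPK1 was the highest kinase gene at 24.6 and 25.2 FPKM. The median hnRNP gene had 46.9 and 49.6 FPKM, the median SR gene 26.0 and 24.7, and the median kinase gene 7.0 and 7.92. PTBP2 at 0.901 and 0.897 FPKM and SRSF12 at 0.0145 and 0.0191 were the rarest members. Where many alternative exons lengthen a gene, as in HNRNPU with 22512 bases and CLK3 with 20443, the deposited length lowers its FPKM.

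**Figure D3:**
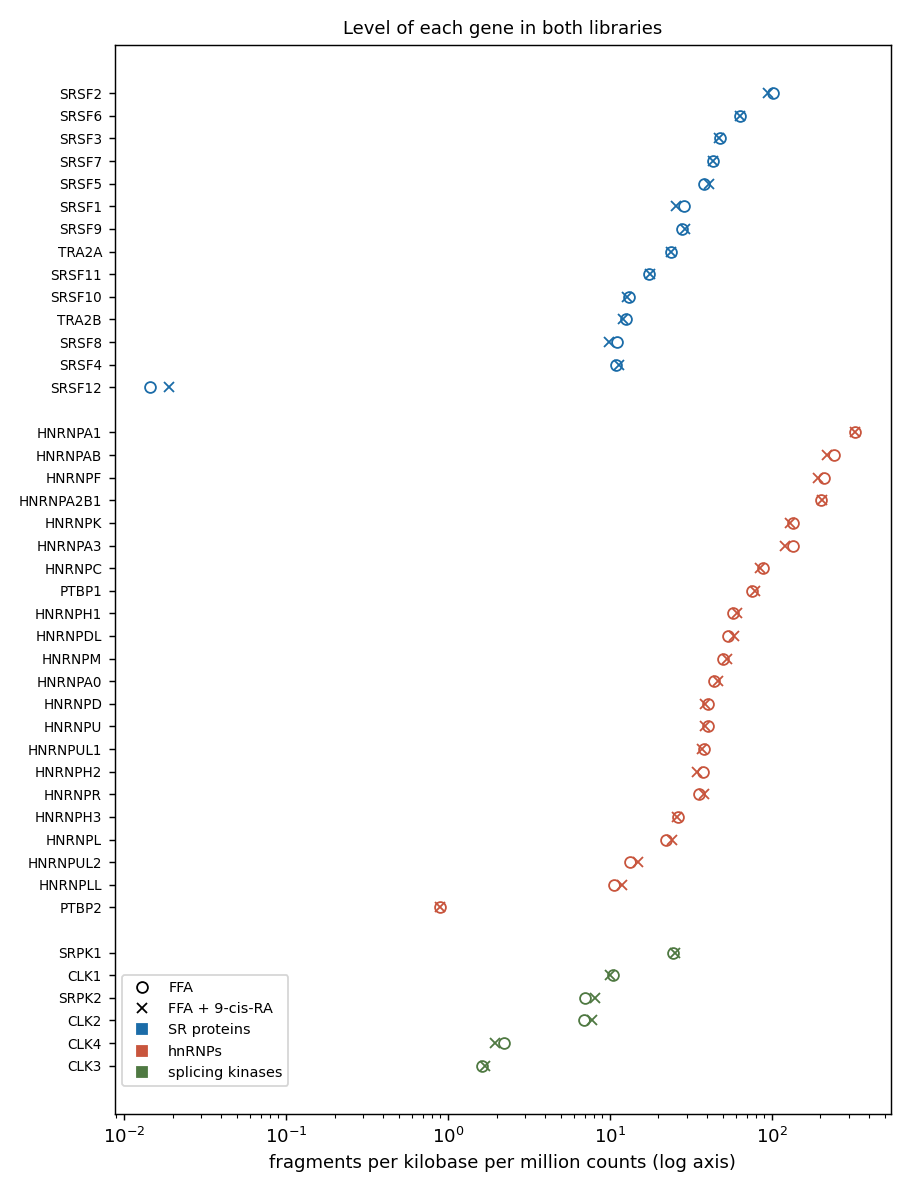
Level of each of the 42 members in FPKM (log horizontal axis) in the FFA library (circles) and the FFA + 9-cis-RA library (crosses), ordered within each list by the FFA level. Circles and crosses nearly coincide for each gene, from HNRNPA1 at 325 and 328 down to SRSF12 at 0.0145 and 0.0191.

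Paralogs were set against each other within each library, which removes the scaling from the comparison. Of 18 pairs taken from the families, 10 had a 95% interval of the change in their ratio (a normal approximation on the log scale, counting error only) that excluded 0. No share over other pairs was computed, and single genes with at least 1000 counts had intervals that excluded 0 in 34.4% and 34.7% of cases (above and below), so the count of 10 is not read as particular to these pairs. The level of HNRNPH1 over HNRNPH2 was 1.53 under FFA and 1.76 under FFA + 9-cis-RA, a log2 change of 0.21 (95% interval 0.15 to 0.27). HNRNPH1 over HNRNPF moved by 0.20 (0.17 to 0.23) in the same direction, and HNRNPA2B1 over HNRNPA3 by 0.16 (0.14 to 0.18). SRSF1 over SRSF9 went from 1.02 to 0.886, a log2 change of -0.20 (-0.27 to -0.13). HNRNPD over HNRNPDL changed by -0.19 (-0.24 to -0.15), HNRNPUL1 over HNRNPUL2 by -0.19 (-0.26 to -0.12) and SRPK1 over SRPK2 by -0.17 (-0.25 to -0.083).

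Other pairs kept their ratio within counting error. PTBP1 over PTBP2 was 84.1 under FFA and 87.8 under FFA + 9-cis-RA, a log2 change of 0.062 (95% interval -0.092 to 0.22). HNRNPA1 over HNRNPA2B1 was 1.61 in both libraries, with a log2 change of 0.0063 (-0.011 to 0.024). HNRNPL over HNRNPLL changed by -0.039 (-0.11 to 0.037), SRSF3 over SRSF7 by -0.023 (-0.071 to 0.025) and CLK1 over CLK4 by 0.13 (-0.019 to 0.27).

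The transcript annotation adds a feature that was not used to choose the members. In GENCODE release 29, all 14 SR genes have at least 1 transcript marked for nonsense-mediated decay, against 14 of the 22 hnRNP genes, 5 of the 6 kinase genes and 41.8% of the 13734 protein-coding genes compared. Transcripts with a retained intron are annotated for 11 SR, 15 hnRNP and 5 kinase genes, and for 56.4% of the protein-coding genes. The median number of transcripts per gene was 10 for SR, 11.5 for hnRNP and 15 for kinase genes, against 7. The counts sum all exons of a gene, so they do not separate productive transcripts from those that decay, and a shift between the forms could not be seen here.

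The members were searched for internal exons that overlap no exon of a coding transcript and that hold the annotated stop codon of a decay transcript. Such exons were found in 6 of the 14 SR, 3 of the 22 hnRNP and 3 of the 6 kinase genes. The SR genes found include SRSF12, which had only 4 and 5 counts. Decay transcripts with their stop codon in an exon that overlaps a coding exon fall outside this rule. Other genes were not searched, so no share over all genes can be set beside these numbers of genes. In the known mode of control, inclusion of such an exon turns the transcript into a target of decay. All of them are exons of the deposited annotation too, so their fragments were added to the gene totals above. As examples, 1 exon is shown for each of 4 genes, the longest where a gene has several (SRSF3 and SRSF7). The sequences run in the direction of transcription from the start of the exon to the stop codon, which is in capitals, and come from GENCODE release 29 transcripts on GRCh38. The full exons are 456 bases long in SRSF3, 268 in SRSF6, 449 in SRSF7 and 70 in HNRNPL.
SRSF3 (chr6:36599821-36599854, plus strand): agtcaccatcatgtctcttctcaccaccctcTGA
SRSF6 (chr20:43459153-43459304, plus strand): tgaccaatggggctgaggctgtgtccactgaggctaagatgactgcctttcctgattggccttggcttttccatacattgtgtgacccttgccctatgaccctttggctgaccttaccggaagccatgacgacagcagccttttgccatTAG
SRSF7 (chr2:38749319-38749346, minus strand): gtttcttcgtttgagtcagtcgcctTGA
HNRNPL (chr19:38841624-38841682, minus strand): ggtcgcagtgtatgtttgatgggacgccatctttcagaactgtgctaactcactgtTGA

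Promoter windows were searched for retinoid receptor hexamers, since 9-cis-RA acts through RXR and RAR. RefSeq windows on GRCh38.p14, from 250 bases before to 50 bases after a start, were given for 39 of the 42 genes (59 windows). The hexamer AGGTCA on either strand occurred in 3 of the 59 member windows, from the genes SRPK2 and SRSF8, and in 13.8% of all 35116 windows. Any of these hexamers on either strand, AGGTCA or its variant AGTTCA or the forms that begin with G, which are GGGTCA for the consensus and GGTTCA for the variant, occurred in 17 member genes (25 of 59 windows) and in 38.6% of all windows. A direct repeat of any 2 of them with 5 bases between them, the arrangement typical of RAR and RXR binding, was in no member window and in 0.0883% of all windows, and with 1 base between them in none and 0.131%. Of the 3 genes used to check the treatment label, CYP26A1 and RARB have the repeat with 5 bases between and DHRS3 has none in these windows. The CYP26A1 repeat, which reads on the opposite strand, is printed as an example. The matches are shown in capitals to set the members' lone hexamers beside it. A match is a description of the letters only.
CYP26A1 (chr10:93073788-93073834, plus strand): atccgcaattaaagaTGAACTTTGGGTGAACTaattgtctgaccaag
SRPK2 (chr7:105389438-105389473, minus strand): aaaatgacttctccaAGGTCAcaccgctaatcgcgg
SRSF8 (chr11:95066798-95066833, plus strand): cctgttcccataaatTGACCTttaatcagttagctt

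The log2 fold changes of the hexamer genes SRPK2 and SRSF8 had opposite signs, at 0.15 and -0.21.

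Other genes of the splicing pathway were taken from lists that do not overlap the members. Beside their interval counts, genes with at least 1000 counts had intervals above 0 in 34.4% of cases and below 0 in 34.7%. SR-related proteins carry arginine and serine repeats but are not of the SRSF family: 21 of 21 were compared, with a median log2 fold change of 0.0095, 8 intervals above 0 and 5 below. Their highest was RSRC2 at 0.19 (3423 and 3824 counts) and their lowest RSRC1 at -0.23 (1284 and 1072 counts). The scaffold proteins of nuclear speckles, SON at 0.16 and SRRM2 at 0.16, were also on the higher side and were picked out after their values were seen. hnRNP-related proteins had 17 entries compared, because MATR3 has 2 identifiers, with a median of 0.0017 and 5 intervals on each side. PCBP2, a poly(C) binding protein, was highest at 0.12, and RALYL, with 10 and 1 counts, was lowest at -2.44 (95% interval -8.73 to -0.48).

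Core snRNP proteins, the constitutive part of the spliceosome, had a median of -0.013 over 23 genes, with 8 intervals above 0 and 11 below. PRPF8, the central scaffold of the catalytic core, was highest at 0.21 (26492 and 30093 counts), and SNRPF, a ring protein of the snRNP core, was lowest at -0.37 (1709 and 1301 counts). Nonsense-mediated decay factors had a median of 0.079 over 10 genes, with 6 intervals above 0 and 0 below. SMG9 was highest at 0.26 and SMG8 lowest at -0.030. The list of other SR kinases, the phosphatase PP1 and the import receptors had a median of 0.12 over 7 genes, with 4 intervals above 0 and 0 below, from PPP1CC at 0.00073 to TNPO1, an import receptor of hnRNP proteins, at 0.18. SRPK3, a muscle kinase, had 6 and 2 counts and was not compared.

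Tissue-regulated splicing factors spread more widely than the members, with quartiles at -0.32 and 0.092. The quartiles were -0.26 and 0.18 for all compared genes, and -0.14 and 0.13 for genes with at least 1000 counts. Of 22 genes 18 were compared, with a median of 0.025, 7 intervals above 0 and 6 below. Over 1.2 times lower were 5 genes, and 1 was over 1.2 times higher. Of the 20431 compared genes, 5126 were over 1.2 times lower and 3692 over 1.2 times higher. Of genes with at least 1000 counts, these were 13.1% and 10.1%. RBM24, a muscle splicing regulator, was lowest with 386 and 226 counts, which put its log2 fold change at -0.74 (counting interval -0.99 to -0.50). The other 4 below the fold of 1.2 were KHDRBS3 at -0.57, MBNL2 at -0.46, RBM47 at -0.42 and the epithelial splicing regulator ESRP2 at -0.38, named after their values were seen. RBM10 was highest at 0.27 with 7949 and 9387 counts. CELF2, ESRP1, NOVA1 and NOVA2 had at most 4 counts in a library.

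**Figure D4:**
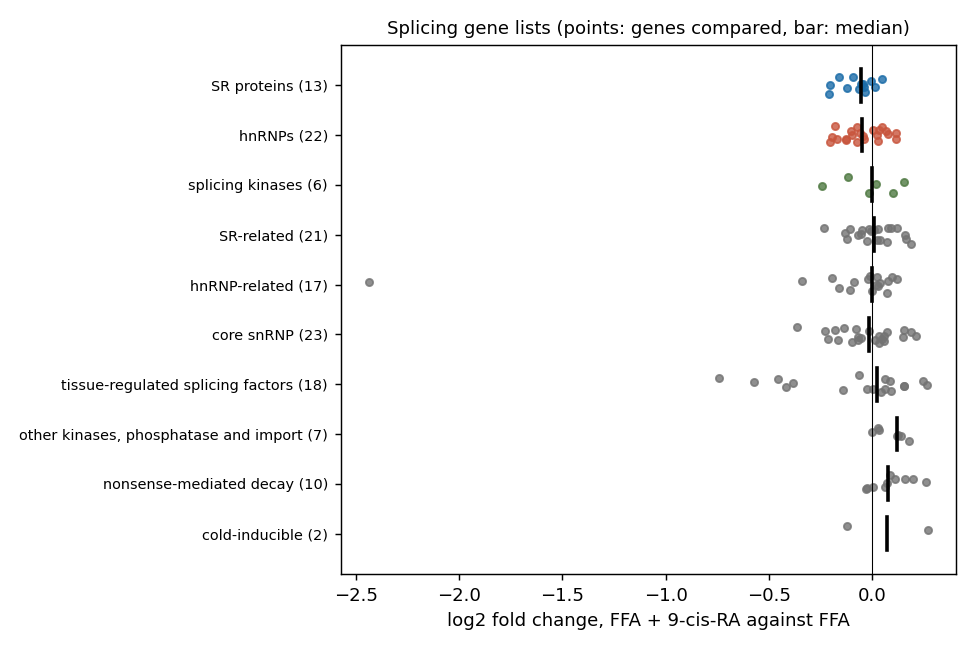
Log2 fold change (FFA + 9-cis-RA against FFA, horizontal axis) of each compared gene in 10 splicing gene lists, with the number compared in brackets, a point per gene and a black bar at the list median. The SR, hnRNP and kinase points stay within -0.24 and 0.15, while 5 tissue-regulated factors lie at -0.38 or lower and RALYL, with 10 and 1 counts, lies at -2.44.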

How the data were processed

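RNA of HepG2 cells was sequenced by the study from stranded poly(A) libraries. The deposited values are raw counts of fragments for each gene, which the authors made with featureCounts version 2.0.1 (read pairs with both ends mapped, fragment length checked, reverse strand, exons summed by gene). Fragments matching several places or genes were not counted. The submitters' processing notes name GRCh38 and DESeq2, and the aligner and annotation release are not given in the sources used here. Symbols came from a gene name table, and transcript types from GENCODE release 29. Median-of-ratios size factors (DESeq2 version 1.42.0, R version 4.3.3) scaled the counts, with TMM (edgeR version 4.0.16), total counts and protein-coding size factors as alternatives. Exact 95% intervals used scipy 1.17.1, and loess trends (span 0.3) statsmodels 0.14.6, in Python 3.11.15. No model can be fitted with 1 library per group. The interval script was tested on simulated counts.

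The members and lists were chosen with earlier results of these data known. Every member is reported, and each other list by its count, median, highest and lowest gene, with further names marked as chosen after their values were seen. Other alternatives were pseudocounts of 0.1 and 5, no count minimum or one of 50, trends on length, expression and GC content removed, and changed list membership. The planned description of protein sequences was not run.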

Additional observations from a re-analysis of the deposited data

How the results depend on the processing

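With 1 library per group, leaving out a replicate leaves no comparison, and counting intervals say nothing of the spread between cultures. No paired analysis was possible because each group has 1 library. Of the members' values under each alternative, 337 moved by less than the distance from the middle to an end of their counting interval. Another 64 moved by more, and 9 turned sign after excluding 0. Changed pseudocounts and count minima each left all 41 members the same, and they could hardly move genes of this depth. The total of 337 is inflated by them. Total-count scaling left 13 members the same, moved 24 and turned 4. Removal of the expression trend left 21 the same, moved 17 and turned 3, while TMM left 37 the same and moved 4. No member passed a log2 fold change of 1 under any alternative, and the number past a fold of 1.2 (a limit chosen after seeing the data) was 1 without the count minimum (SRSF12), 1 after removal of the length trend and 1 after that of the GC trend (CLK4 in both).

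Total-count scaling put the SR median at -0.0033 and the hnRNP median at -0.00018, with 2 SR intervals above 0 and 5 below and 1 kinase interval below. It turned SRSF6 to 0.011, SRSF7 to 0.0073, HNRNPA1 to 0.013 and HNRNPA2B1 to 0.0066. With the expression trend removed the hnRNP median was 0.013, 5 SR intervals lay below 0 and 1 kinase interval above, and SRSF6 was at 0.0076, HNRNPA1 at 0.053 and HNRNPA2B1 at 0.049. Removal of the length trend left 4 hnRNP intervals above 0 and HNRNPH1 at -0.0057, and removal of the GC trend put HNRNPH1 at -0.014. Protein-coding size factors left 1 kinase interval above 0. The difference in SR share, -0.063 percentage points, became 0.073 per kilobase and 0.062 without HNRNPA1 and HNRNPA2B1 (the latter chosen after seeing the data). The causes were not tested, beyond the change of scale that each alternative makes.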

Other observations

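The cold-inducible RNA-binding proteins, which serve as a readout of culture temperature and stress, lay on opposite sides. CIRBP had 6383 and 7548 counts, which put its log2 fold change at 0.27 (95% counting interval 0.22 to 0.32), and RBM3 had 63520 and 57258 counts, which put its log2 fold change at -0.12 (95% counting interval -0.14 to -0.11). Exons of another gene cover 7.24% of RBM3 on the same strand.

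The splicing genes U2AF1 and MATR3 had low counts. U2AF1, the small subunit of the factor that recognizes the 3′ splice site, had 173 and 155 counts, against 14364 and 14339 for its partner U2AF2. MATR3, a nuclear matrix protein, had 263 and 256 counts under one identifier and 8 and 6 under another. Other gene entries cover 42.6% and 90.7% of the exonic bases of these entries. The MATR3 entries themselves overlap in span on chromosome 5 (139293674 to 139331677 and 139273752 to 139331671), and this measure treats them as different genes. No other gene on the same strand overlaps the exons of U2AF1. Fragments that matched several places or several genes were not counted, and their part in these low counts was not tested. Both genes were picked out after their values were seen.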
